A study of Homo sapiens with 8 samples.

Results

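Hct116, an established human colorectal carcinoma cell line of poor differentiation, was examined for 10 genes that mark differentiated colon epithelium. The genes are CDX1, CDX2, VIL1, KRT20, MUC2, FABP1, LGALS4, CDH17, GPA33 and CEACAM5. They were found by symbol among the 23459 genes of the deposited count table, and all 10 were present. RNA had been collected after 16 h with 30 μM lenalidomide, a thalidomide derivative that redirects the CRBN ubiquitin ligase to new substrates, or with DMSO, its solvent. There were 4 replicates per treatment, and no other agent or allele distinguished the groups. The cells were of a single line, and the medium was exchanged for one with amino acids of the other isotope label when the compound was added.

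The colon epithelium is renewed from stem cells at the crypt base, whose progeny mature into absorptive colonocytes and mucus-secreting goblet cells as they move to the surface. CDX1 and CDX2 are homeobox transcription factors that set intestinal identity and act on many genes of the mature cells. The other markers are products of those cells, and poorly differentiated colorectal tumours often lose a number of them.

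The 4 DMSO libraries held 35268940 to 37473413 counts and the 4 lenalidomide libraries 28218471 to 33659982, so that every lenalidomide library was smaller. The scaling factors (TMM) were between 0.971 and 1.02, and 16953 to 19568 genes had at least 1 count. Levels are given as CPM (counts per 1e6 counts of the library, scaled by these factors) or, where genes are compared with each other, as RPKM (CPM per kilobase of exonic width). A gene was called on if it had at least 1 RPKM in every library. It was called low if it missed that limit but had at least 10 counts in every library and a mean of at least 0.1 RPKM, and trace otherwise. By these limits 46.6% of all genes were on, 10.2% were low and 43.3% were at trace level.

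Of the 10 markers 2 were on, CDX2 and KRT20, and the other 8 were at trace level. CDX2 held 75.0% and KRT20 23.2% of the 3007 counts of all 10 genes in the 8 libraries, and each of the 8 trace genes had fewer than 20 counts over all libraries together. No marker lay between these levels. Intervals given with pooled levels are at 95% and cover counting error only. In bulk RNA, fewer cells with a transcript and less of it per cell cannot be told apart.

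Positions are those of GRCh37. CDX2 (Entrez gene 1045; chromosome 13, 28535055 to 28543452, minus strand) shares no exonic base with another gene. Its counts in DMSO replicates 1 to 4 were 319, 313, 296 and 306, and in lenalidomide replicates 1 to 4 they were 226, 296, 236 and 262. The mean level was 3.53 RPKM, with a range of 3.05 to 3.86 RPKM over the libraries. This placed CDX2 at rank 8676 of all genes, the 63.0th percentile.

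KRT20 encodes keratin 20, an intermediate filament protein of mature surface cells. KRT20 (Entrez gene 54474; chromosome 17, 39032141 to 39041494, minus strand, no overlapping exons) had 110, 88, 83 and 90 counts in DMSO replicates 1 to 4. In lenalidomide replicates 1 to 4 it had 76, 97, 82 and 73 counts. Its mean level was 1.43 RPKM (range 1.32 to 1.63 RPKM), at the 54.5th percentile. KRT20 was thus above the limit of 1 RPKM in every library, though not by much, and CDX2 was above KRT20 in all 8 libraries. Over all libraries the level of CDX2 was 2.48 times that of KRT20 (95% interval 2.27 to 2.70).

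**Figure D1:**
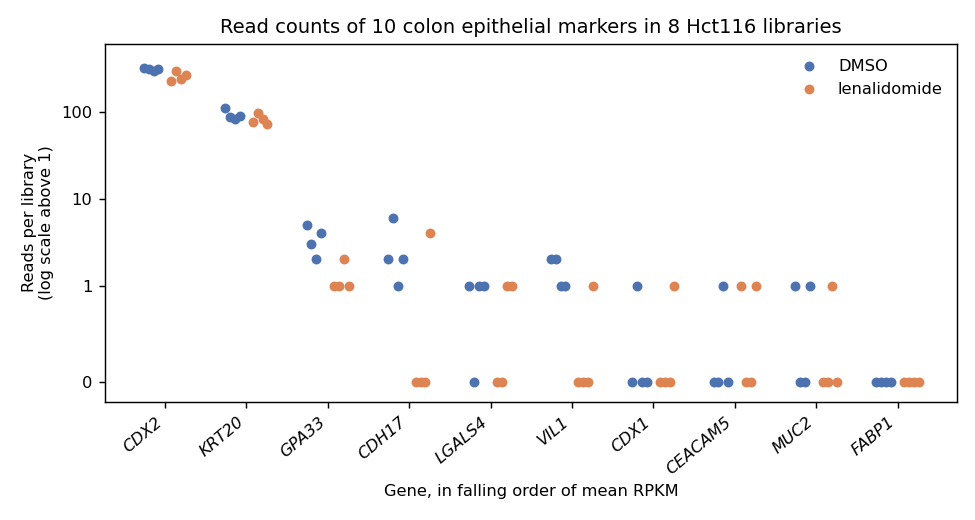
Reads per library (log scale above 1, linear between 0 and 1) for the 10 markers, with 1 point for each of the 4 DMSO and 4 lenalidomide libraries. CDX2 (226 to 319 reads) and KRT20 (73 to 110 reads) stand far above the other markers, none of which exceeds 6 reads in any library.

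Among the markers of the cell surface, GPA33, an immunoglobulin-like glycoprotein of intestinal epithelium, was the only one of the 8 trace genes with counts in every library. GPA33 (chromosome 1, 167022073 to 167135716) had 5, 3, 2 and 4 counts with DMSO and 1, 1, 2 and 1 with lenalidomide. CDH17, the liver-intestine cadherin that joins intestinal cells, had 2, 6, 1 and 2 counts with DMSO and 0, 0, 0 and 4 with lenalidomide. CDH17 lies on chromosome 8 from 95139390 to 95229531. CEACAM5, the carcinoembryonic antigen (chromosome 19, 42212504 to 42234353), had 3 counts in all, 1 in each of 3 libraries. Its exons overlap those of another annotated gene on the same strand, with which reads could be shared. The pooled levels were 0.0251 RPKM for GPA33 (0.0151 to 0.0391), 0.0145 for CDH17 (0.00813 to 0.0240) and 0.00276 for CEACAM5 (0.000570 to 0.00807).

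VIL1 encodes villin, which bundles actin in the microvilli of the brush border. VIL1 (chromosome 2, 219283844 to 219318018) had 2, 2, 1 and 1 counts with DMSO and 0, 0, 0 and 1 with lenalidomide. Exons of USP37 on the opposite strand overlap those of VIL1. The counting was run with the defaults of QuasR, which take reads of either strand, so reads of USP37 cannot be told apart there. LGALS4, a galectin of the intestinal lining (chromosome 19, 39292311 to 39303585), had 5 counts, 1 in each of 5 libraries. FABP1, the fatty acid carrier of absorptive cells (chromosome 2, 88422501 to 88427581), had 0 counts in every library. Of 271639925 counts in all, 0 allows a level of up to 0.0196 RPKM for FABP1, taking 3 counts over the 8 libraries as the limit.

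MUC2, the secreted mucin of goblet cells (chromosome 11, 1074875 to 1104416), had 3 counts in all, 1 in each of 3 libraries. With an exonic width of 8623 bases its pooled level of 0.00128 RPKM was the lowest of the 9 genes with counts. CDX1 (chromosome 5, 149546341 to 149564121) had 2 counts, 1 in DMSO replicate 2 and 1 in lenalidomide replicate 4. The paralogues CDX1 and CDX2 were thus far apart, with CDX2 849 times higher per length (95% interval 235 to 7018). Against the other trace genes with counts, CDX2 was from 141 times (GPA33, 90.0 to 235) to 2756 times (MUC2, 942 to 13373) higher, and it was at least 179.9-fold higher than FABP1.

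In the order of levels, CDX2 and KRT20 did not overlap over the libraries, nor did KRT20 and GPA33, which differed 56.9 times. From GPA33 downward, every gene overlapped with the next in its range over the libraries and in its counting interval, so that no pair of neighbours was resolved at this depth. Farther apart in the order, the counting interval of CDH17 lay above those of CEACAM5 and MUC2. That of GPA33 lay above those of CEACAM5 and MUC2 and, barely, above that of CDX1 (0.0151 against 0.0150 RPKM).

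**Figure D2:**
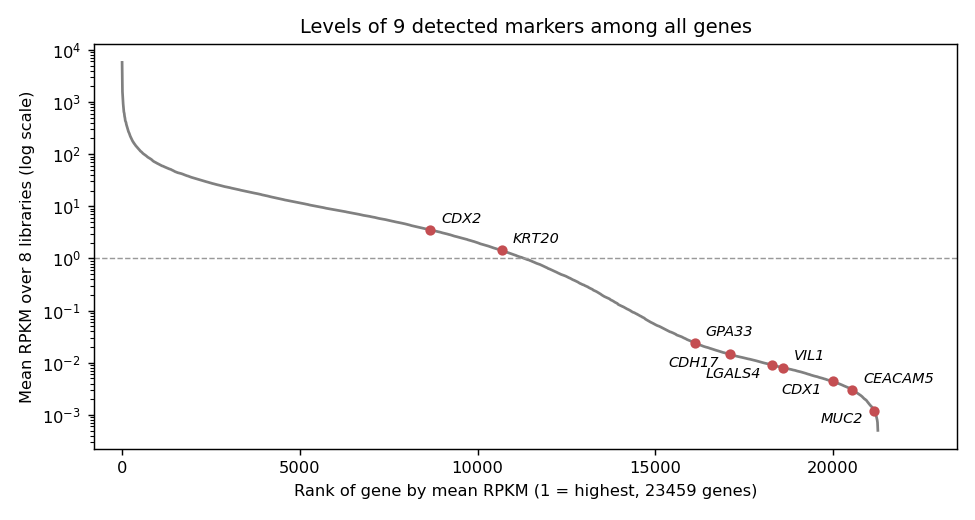
Mean RPKM over 8 libraries (log scale) against rank for all 23459 genes (grey line, genes at 0 not drawn), with the 9 markers that had counts in red and a dashed line at 1 RPKM. CDX2 at 3.53 RPKM and KRT20 at 1.43 RPKM lie above the line, and the next marker, GPA33, lies at 0.0241 RPKM.

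The bases before the start of transcription are shown for the 2 genes that were on and for MUC2 and FABP1, so that genes that were on can be set beside genes at trace level that hold a motif in common with one of them. The sequences are the 250 bases before the start from RefSeq on GRCh38.p14, read in the direction of the gene, and 7 of the 10 markers matched an entry. The bases just after the start were found in an annotated transcript for CDX2, KRT20 and FABP1. They were not found for MUC2, so its start is less certain. CDX factors bind elements with the letters TTTATG, which read CATAAA on the other strand. Matches on either strand are in capitals.

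CDX2, chr13:27969316-27969565, minus strand: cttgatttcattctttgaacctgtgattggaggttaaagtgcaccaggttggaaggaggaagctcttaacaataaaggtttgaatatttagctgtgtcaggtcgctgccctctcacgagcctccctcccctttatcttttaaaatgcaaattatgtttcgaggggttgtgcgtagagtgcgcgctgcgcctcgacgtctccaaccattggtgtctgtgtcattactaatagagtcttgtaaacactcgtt
KRT20, chr17:40885243-40885492, minus strand: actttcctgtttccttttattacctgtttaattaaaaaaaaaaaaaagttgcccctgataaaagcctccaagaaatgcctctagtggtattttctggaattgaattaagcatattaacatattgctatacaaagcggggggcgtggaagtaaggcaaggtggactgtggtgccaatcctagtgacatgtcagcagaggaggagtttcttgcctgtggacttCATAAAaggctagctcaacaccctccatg
MUC2, chr11:1074624-1074873, plus strand: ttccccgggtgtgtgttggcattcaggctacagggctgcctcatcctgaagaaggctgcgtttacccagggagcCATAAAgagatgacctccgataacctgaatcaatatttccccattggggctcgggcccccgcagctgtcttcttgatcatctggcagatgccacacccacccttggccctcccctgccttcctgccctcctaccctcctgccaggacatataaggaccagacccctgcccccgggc
FABP1, chr2:88128063-88128312, minus strand: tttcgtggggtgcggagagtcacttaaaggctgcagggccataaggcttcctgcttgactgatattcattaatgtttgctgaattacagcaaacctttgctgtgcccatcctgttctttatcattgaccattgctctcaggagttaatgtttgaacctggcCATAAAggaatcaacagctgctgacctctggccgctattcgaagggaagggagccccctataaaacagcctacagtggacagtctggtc

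TTTATG was found in 3 of the 7 windows, those of KRT20, MUC2 and FABP1, each once and on the other strand, and in 9.65% of 34788 windows of the same length. It began 29 bases before the start in KRT20, 176 bases before it in MUC2 and 89 bases before it in FABP1. The motif was thus present before a gene that was on and before 2 genes at trace level. TATAAA, searched on both strands and not overlapping these matches, was found in FABP1 alone, 31 bases before the start, against 10.8% of all windows. The ratio of observed to expected CpG was 0.785 before CDX2 and under 0.6 in the other 6 windows, as in 52.6% of all windows. In KRT20 it was 0.189, so the 2 genes that were on differed in this feature. A match of letters does not show a bound site.

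Other genes of the intestinal programme were examined as lists. Of 14 intestinal identity regulators 6 were on, 4 were low and 4 were at trace level. KLF5, a zinc finger factor of the crypt, was the highest at 22.6 RPKM, followed by ELF3, an epithelial ETS factor, at 7.35 RPKM. HNF4A, a nuclear receptor of enterocytes, missed the limit at 0.868 RPKM and GATA6 at 0.997 RPKM. CDX4, the third gene of the CDX family, had 2 counts in all and GATA4 had 0. CDX2 at 3.53 RPKM thus stood among regulators of which some were higher and some lower.

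Products of mature cells were mostly at trace level. Of 21 genes of absorptive colonocytes and the brush border 15 were at trace level, among them SLC26A3, the chloride exchanger of colonocytes, with 11 counts, and the intermicrovillar cadherins CDHR2 and CDHR5 with 7 and 4. The 6 that were on included EZR, which encodes the membrane-actin linker ezrin, at 921 RPKM, and PLS1, which encodes an actin bundler of microvilli, at 22.1 RPKM. Both are also expressed outside the intestine. The rest of those on were SLC26A2 at 5.72, ESPN at 3.43, USH1C at 1.97 and DPP4 at 1.13 RPKM. All 15 goblet cell and mucin genes in the table were at trace level, with MUC1 the highest at 0.125 RPKM, and TFF3, the goblet cell trefoil factor, had 0 counts. MUC3A and MUC5AC, also on this list, were not analysed here. All 6 enteroendocrine products were at trace level, the highest being CHGB at 0.0568 RPKM and PYY at 0.0198 RPKM. Of 11 secretory lineage regulators 2 were on, GFI1 at 1.62 RPKM and FOXA3 at 1.44 RPKM, while ATOH1, the factor that commits cells to the secretory lineage, had 2 counts.

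Relatives of the markers were examined for whether other members of the same families were detected. Keratins of simple epithelia were far above KRT20, with KRT19 at 568 RPKM and KRT8 and KRT18 at 212 and 213 RPKM. Among fatty acid binding proteins FABP5 was at 529.8 RPKM and FABP6 at 4.63 RPKM, whereas FABP2 had 13 counts. Among galectins LGALS1 was at 230.5 RPKM and LGALS3 at 38.6 RPKM, whereas LGALS2 had 3 counts. All 6 relatives of CEACAM5 were at trace level, with CEACAM1 the highest at 0.0316 RPKM. Counts of FABP5, of the keratins and of the CEACAM genes are uncertain, since near-identical copies or pseudogenes could share reads with them.

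All 17 general epithelial genes were on, with EPCAM, an adhesion protein of epithelia, at 348 RPKM. Of 16 crypt stem and progenitor genes 10 were on, led by CD44 at 54.4 RPKM and SOX9 at 20.5 RPKM, while LGR5, ASCL2 and OLFM4 had 15, 0 and 3 counts. Of 8 mesenchymal genes 2 were on, SNAI1 at 2.25 RPKM and ZEB1 at 1.38 RPKM, and VIM was at 0.778 RPKM. Markers of other cell types were mostly at trace level. No gene was on among 6 fibroblast, 4 endothelial, 4 squamous, 4 gastric and 4 liver markers. Their leading genes were COL1A1 at 0.502, DCN at 0.0181, KDR at 0.0495, VWF at 0.0396, KRT13 at 0.110, TP63 at 0.0163, GKN1 at 0.00528, MUC6 at 0.00488, ALB at 0.0588 and APOA2 at 0.0235 RPKM. Of 6 leukocyte markers CD68, a lysosomal protein gene, was on at 2.53 RPKM, and PTPRC, the defining leukocyte gene, was at 0.0126 RPKM. PTPRC had 2, 1, 1 and 0 counts with DMSO and 4, 6, 3 and 6 with lenalidomide, too few for the test, without overlap between the treatments in CPM. KRT13 had 6, 4, 6 and 4 counts with DMSO and 9, 10, 6 and 9 with lenalidomide, also without overlap in CPM. For both genes the exact permutation p was 0.0286, the smallest possible here and not corrected for the many listed genes examined. The treatments did not overlap for 2.08% of the 13925 genes tested, but no such share was computed for genes with too few counts.

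**Figure D3:**
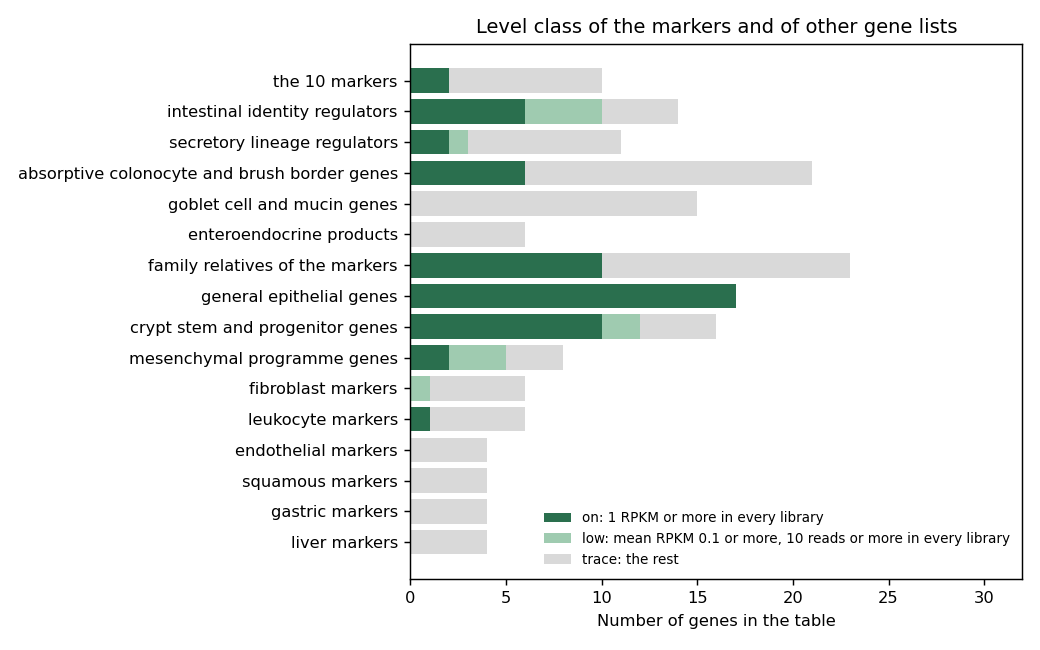
Number of genes that were on, low or at trace level (bar segments) among the 10 markers and 15 other gene lists. All 17 general epithelial genes are on, whereas 8 of the 10 markers, 15 of 15 goblet cell genes and 15 of 21 absorptive genes are at trace level.

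Lenalidomide was then compared with DMSO. Among the markers neither of the 2 genes with enough counts to be tested, CDX2 and KRT20, changed by edgeR's quasi-likelihood test. Of all 13925 genes tested, 2 had an adjusted p under 0.05, which is 0.0144%. The number of markers was 0 at an adjusted p under 0.05 and 0 at an unadjusted p under 0.05, against 4.18% of all genes at the latter, and DESeq2 and the likelihood ratio test also gave 0.

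CDX2 was at 8.54, 8.63, 8.65 and 8.08 CPM in DMSO replicates 1 to 4 and at 7.33, 8.92, 7.17 and 9.08 CPM in lenalidomide replicates 1 to 4. The lenalidomide values lay on both sides of the DMSO values, and their coefficient of variation was 12.5% against 3.18% with DMSO. The DMSO mean was 8.47 ± 0.269 CPM and the lenalidomide mean 8.13 ± 1.01 CPM (SD, n = 4 each). The log2 fold change was -0.061 (standard error 0.094, 95% interval -0.26 to 0.14, adjusted p = 0.999 by the quasi-likelihood test with Benjamini-Hochberg adjustment). As a fold, the interval ran from 0.833 to 1.10, so a larger change of CDX2 in either direction lies outside it. The two-sided exact permutation test of the CPM values gave p = 0.486.

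KRT20 was at 2.94, 2.43, 2.42 and 2.38 CPM with DMSO and at 2.46, 2.92, 2.49 and 2.53 CPM with lenalidomide. In each treatment 1 library stood above the other 3, replicate 1 with DMSO and replicate 2 with lenalidomide, and the treatments overlapped. The means were 2.54 ± 0.268 CPM and 2.60 ± 0.216 CPM (SD, n = 4 each). The log2 fold change was 0.034 (standard error 0.13, 95% interval -0.24 to 0.31, adjusted p = 0.999 from the same test), and the exact permutation p was 0.486. Without lenalidomide replicate 2 it was -0.028 and without DMSO replicate 1 it was 0.11, so the direction of KRT20 turned with 1 library.

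**Figure D4:**
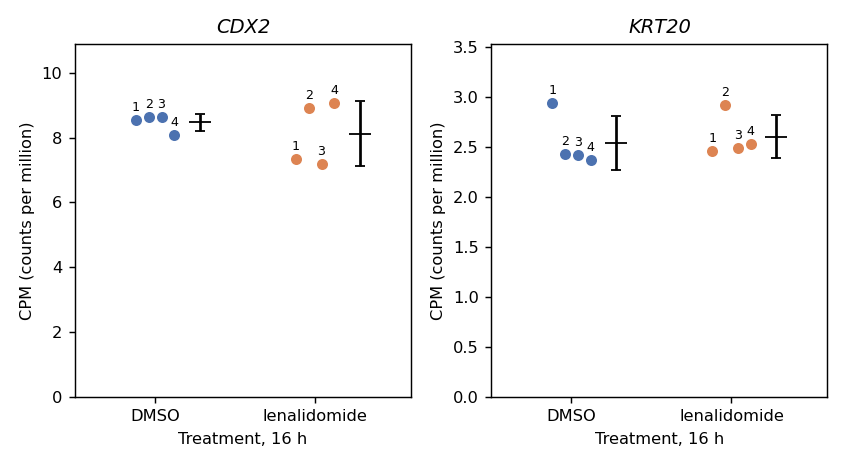
CPM of CDX2 (left) and KRT20 (right) by treatment, with 1 point per library labelled by replicate number and the mean with its SD (n = 4) as a bar beside the points. The treatments overlap for both genes, with means of 8.47 and 8.13 CPM for CDX2 and of 2.54 and 2.60 CPM for KRT20.

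The precision for both genes was that of their level. The interval of CDX2 had a half-width of 0.20 on the log2 scale, as had the median of the 766 genes within 1.2 times its CPM, and that of KRT20 had a half-width of 0.27 against 0.32 for 493 such genes. A log2 fold change under 0.1 in size, as both genes had, was found for 71.9% of all genes tested. Of the 2 tested markers, 0 had values that did not overlap between treatments, against 2.08% of all genes.

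The 8 trace genes had too few counts to be among the 13925 genes tested. Together they had 11, 12, 6 and 9 counts in DMSO replicates 1 to 4 and 2, 1, 4 and 9 counts in lenalidomide replicates 1 to 4, or 0.175 to 0.331 CPM and 0.0302 to 0.312 CPM. The ranges overlapped through lenalidomide replicate 4, the smallest library but also the one with the most genes with counts, 19568. This library held all 4 lenalidomide counts of CDH17. GPA33 had 14 counts with DMSO and 5 with lenalidomide (two-sided exact permutation p = 0.0571 on CPM), VIL1 had 6 and 1 (exact permutation p = 0.0857) and CDH17 had 11 and 4 (exact permutation p = 0.457). The exact test was run for 9 markers, and the smallest p that 4 against 4 allows is 0.0286, which none reached. When all genes with at least 1 count were fitted, the adjusted p of GPA33, VIL1 and CDH17 was 0.930 each by the quasi-likelihood test. At so few counts a decrease or a small increase of these genes was neither shown nor excluded. Their highest values in any library were 0.0479 RPKM (GPA33), 0.0179 RPKM (VIL1) and 0.0435 RPKM (CDH17). All were under the limit of 0.1 RPKM for the low class, so a rise to that class was not seen.

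The regulators and products listed above held no gene past an adjusted p of 0.05 in either direction. Over the 10 identity regulators tested the median log2 fold change was -0.048, against 0.0025 over all genes tested. Of these 10 regulators 2 had an unadjusted p under 0.05 by the quasi-likelihood test, a larger share than the 4.18% of all genes tested. The list was small, and this difference in share was not tested. KLF5 was at 91.2, 86.0, 87.3 and 80.6 CPM with DMSO and at 74.2, 73.6, 74.7 and 71.4 CPM with lenalidomide. VDR, the vitamin D receptor, was at 18.8, 17.7, 18.9 and 18.2 CPM with DMSO and at 16.6, 15.6, 16.0 and 15.3 CPM with lenalidomide. The treatments did not overlap for either gene, nor did they for 2.08% of all genes tested. The log2 fold changes were -0.23 (standard error 0.052, adjusted p = 0.649) for KLF5 and -0.21 (standard error 0.062, adjusted p = 0.999) for VDR by the quasi-likelihood test. Both genes thus had lower values with lenalidomide but failed the correction over all genes, and the difference between their change and that of CDX2 was not tested.

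**Figure D5:**
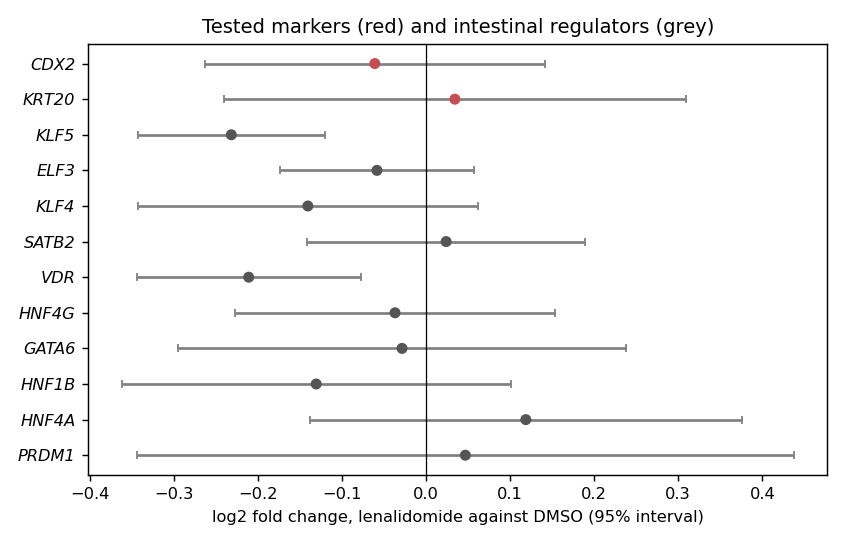
Log2 fold change of lenalidomide against DMSO with its 95% interval for the 2 tested markers (red) and the 10 tested intestinal identity regulators (grey), in falling order of level within each set. The intervals of CDX2 and KRT20 include 0, and those of KLF5 (-0.34 to -0.12) and VDR (-0.34 to -0.077) do not, though no gene shown passes the adjusted threshold.

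Median log2 fold changes of the other lists with at least 3 genes tested were 0.088 for 3 secretory regulators, -0.040 for 6 absorptive genes, -0.017 for 3 goblet cell and mucin genes, 0.033 for 11 relatives of the markers, 0.039 for 17 general epithelial genes, -0.024 for 12 stem and progenitor genes and -0.0052 for 5 mesenchymal genes. An unadjusted p under 0.05, which 4.18% of all genes tested had, was found for 1 goblet cell gene, FCGBP. FCGBP encodes a mucus protein and was at 0.482, 0.524, 0.467 and 0.501 CPM with DMSO and 0.648, 0.543, 0.790 and 1.11 CPM with lenalidomide. The treatments did not overlap for FCGBP, nor did they for 2.08% of all genes tested, and its adjusted p was 0.999 by the quasi-likelihood test. An unadjusted p under 0.05 was also found for KRT7, a simple epithelial keratin with a log2 fold change of 0.26 (unadjusted p = 0.0228, quasi-likelihood test), and for 3 stem and progenitor genes. These were RNF43 (log2 fold change 0.20) and AXIN2 (0.19), both negative regulators of Wnt signalling, and EPHB2 (-0.18), an ephrin receptor of the crypt, so that they did not share a direction. Each had an adjusted p of 0.999 by the same test. For KRT7, RNF43, AXIN2 and EPHB2 the treatments overlapped in CPM.

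Over the 8 libraries the log2 CPM of CDX2 and KRT20 correlated at 0.36 (Pearson, a description over libraries that share treatments and depth). Among the 9093 other genes at a mean of 10 CPM or more, those most like CDX2 were N4BP2L2 (0.88), DNAL4 (0.88) and ACO1 (0.86). Those most like KRT20 were MPHOSPH9, FZD1 and ZNF638 (each 0.92). Above 0.9 there were 0 genes for CDX2 and 9 for KRT20. The named genes are the highest of 9093 values over only 8 libraries, and whether they exceed chance was not tested.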

How the data were processed

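Total RNA of Hct116 cells was prepared with a ScriptSeq v2 kit and sequenced on an Illumina HiSeq. With QuasR at default parameters the authors made spliced alignments to hg19, counted reads per gene of the UCSC known genes and deposited raw counts with the exonic width of each gene. The submitters' processing notes name bcl2fastq 2.17. Other versions are not given in the sources used here. The study designed part of its replicates as label swaps, and which libraries these are is also not given. Replicates are called biological in the design text and technical in the methods for the same cultures, so p-values measure only the spread between these libraries, which may be technical. Of 23459 rows, 70 had no symbol and held 0.0223% of the counts. They were kept.

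In R 4.3.3, edgeR 4.0.16 (filterByExpr at 10 counts and a total of 15, TMM, glmQLFit, glmQLFTest) tested 13925 genes, with Benjamini-Hochberg adjustment over all of them, a threshold of 0.05 and 95% intervals derived from each coefficient and its F value. RPKM used library totals, TMM factors and the deposited widths. Correlations used log2(CPM + 0.5). Ratios of pooled levels used an exact binomial interval. PCR duplicates cannot be told from molecules, so counting intervals cover counting error only. Alternatives used RLE factors, DESeq2 1.42.0, limits on counts, a replicate block, thinning and leaving out libraries.

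The 12 pairs of libraries within a treatment differed beyond sampling noise (chi-square divided by its degrees of freedom 5.55 to 24.1). Positions are from GENCODE v44lift37 on GRCh37, the build of the alignment. The markers and lists were chosen with earlier results of these data known. Named from the other lists were the 2 genes with the highest RPKM and the 2 with the smallest unadjusted p under 0.05. Any others were named after their values were seen.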

Additional observations from a re-analysis of the deposited data

Results flagged for a closer look

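Of 50 groups of 4 values examined, 4 held 1 library far from the other 3 relative to the range, where chance gives about 2.5. KRT20 reached 2.94 CPM in DMSO replicate 1 while the other DMSO libraries had 2.38 to 2.43 CPM. It also reached 2.92 CPM in lenalidomide replicate 2 while the other lenalidomide libraries had 2.46 to 2.53 CPM. FABP5 reached 470.0 CPM in DMSO replicate 3, the others having 340.0 to 362 CPM. SNAI1 reached 4.75 CPM in lenalidomide replicate 4, the others having 3.38 to 3.53 CPM.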

How the results depend on the processing

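The number of markers past an adjusted or an unadjusted p of 0.05 was 0 in all 15 alternatives. CDX2 was lower with lenalidomide in all 15, but these reuse the same libraries, so the shared direction does not show a decrease. With libraries left out its log2 fold change ran from -0.12 without lenalidomide replicate 4 to -0.0053 without lenalidomide replicate 3. The adjusted p of CDX2 ran from 0.830 to 0.9999 (quasi-likelihood test or DESeq2). KRT20 was higher in 14 of 15, from -0.028 to 0.11 with libraries left out, and its adjusted p ran from 0.979 to 0.9999. The number of markers at 1 RPKM or more in every library, 2, became 1 at 2 RPKM, when KRT20 was lost. It stayed at 2 at 0.5 RPKM, with TPM, with RLE factors and without any one library.

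Over all genes the 2 calls became 9 (DESeq2), 12 (likelihood ratio test) and 4 (all genes of at least 1 count), each including both. With libraries left out there were 1 to 2. The cause was not tested. With the replicate number as a block there were 6 calls and 0 among the markers. Deviations of same-numbered libraries correlated at 0.052, -0.0076, 0.0033 and 0.31 for replicates 1 to 4, and 3 of 8 libraries correlated best with their own number, so that pairing by number was not shown, though replicate 4 stood above the others. Depth limits the 8 trace genes. With all genes of at least 1 count fitted, 7 of them were tested and 0 passed, and FABP1 had 0 counts.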
